A study of Mus musculus with 69 samples.

Results

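Adamts9 and 5 related genes, Adamts1, Adamts4, Adamts5, Adamts15 and Adamts2, were followed in mouse lung across 14 groups of material, dose and day. The genes were found through the transcript named for each probe, and the 6 genes had 10 probes among the 41174 probes and 18656 genes measured. They belong to the 17 ADAMTS genes that had a symbol on the array. Adamts9 was chosen on its measured values, because in earlier results of these data the response to 162 µg differed between the days for both materials. Its values in the vehicle and 162 µg groups, and every contrast that shares those arrays, are therefore given as a description with no test. The other 5 genes were taken for their kinship with Adamts9.

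The lungs came from female C57BL/6 mice, 5 to 7 weeks old on arrival and acclimatised for 1 to 3 weeks. Each mouse received a single intratracheal instillation of 18, 54 or 162 µg of titanium dioxide nanoparticles, either NRCWE-025 or NRCWE-030, suspended in water with 2% serum, or that vehicle alone. Whole lungs were taken 24 h later (day 1) or after 28 days (day 28). RNA of 1 mouse per array was labelled with Cy5 and hybridised against a commercial reference RNA pool labelled with Cy3, with no dye swap. There were 69 arrays, with 5 in each group except for 4 at 162 µg of NRCWE-025 on day 28. The 5 vehicle arrays of a day served both materials, so the differences of NRCWE-025 and NRCWE-030 from vehicle share their controls. Values are log2 ratios of lung over reference RNA. In RNA of whole lung, fewer cells of a type and less RNA per cell cannot be told apart.

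ADAMTS proteins are secreted zinc metalloproteinases that carry thrombospondin repeats and act in the extracellular matrix. ADAMTS1, ADAMTS4, ADAMTS5, ADAMTS9 and ADAMTS15 form the proteoglycanase branch, which cuts versican and aggrecan, the large chondroitin sulfate proteoglycans that bind hyaluronan. ADAMTS2 removes the amino-terminal propeptide of fibrillar procollagens and so takes part in collagen fibril formation. In the lung, versican turnover is part of development, injury and inflammation, and tissue inhibitors of metalloproteinases hold several of these enzymes in check.

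The RefSeq promoter table (build GRCm38.p6) held 3 of the 6 genes. Their 250 bases before the annotated transcript start are shown because the table held no others of the 6. No link between these letters and the levels of the genes was tested. The Adamts9 stretch lies at chr6:92943535-92943784 on the minus strand, that of Adamts1 at chr16:85803114-85803363 on the minus strand, and that of Adamts2 at chr11:50601835-50602084 on the plus strand. Capitals mark matches, on either strand, to 5 motifs. These were the TATA box, spelled TATAAA, the core of the CREB/ATF site, spelled TGACG, the AP-1 site, spelled TGANTCA, the E-box, spelled CACGTG, and the GC box, spelled GGGCGG.
Adamts9: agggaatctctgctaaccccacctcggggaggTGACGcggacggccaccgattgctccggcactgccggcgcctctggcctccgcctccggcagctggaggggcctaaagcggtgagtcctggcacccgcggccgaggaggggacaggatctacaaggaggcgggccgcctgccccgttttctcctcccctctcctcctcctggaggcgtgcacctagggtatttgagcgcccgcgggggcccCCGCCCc
Adamts1: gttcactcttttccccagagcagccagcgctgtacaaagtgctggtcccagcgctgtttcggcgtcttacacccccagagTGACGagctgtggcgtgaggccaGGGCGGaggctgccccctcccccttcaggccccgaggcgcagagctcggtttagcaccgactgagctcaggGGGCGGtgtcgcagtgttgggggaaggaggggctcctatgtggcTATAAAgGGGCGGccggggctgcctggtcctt
Adamts2: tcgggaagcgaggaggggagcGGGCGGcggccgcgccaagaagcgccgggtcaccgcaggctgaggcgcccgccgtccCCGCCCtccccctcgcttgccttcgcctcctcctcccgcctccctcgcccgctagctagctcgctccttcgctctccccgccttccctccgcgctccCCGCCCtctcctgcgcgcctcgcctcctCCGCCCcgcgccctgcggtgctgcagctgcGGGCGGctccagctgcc
TGACG was found once in Adamts9 and once in Adamts1, 218 and 170 bases before the start, and not in these letters of Adamts2. TATAAA was found in Adamts1 alone of the 3, beginning 32 bases before the start. GGGCGG or its complement occurred 1 time in Adamts9, 3 times in Adamts1 and 5 times in Adamts2. TGANTCA and CACGTG were in none of the 3 windows. No match overlapped another. Of 32851 promoters of the same length, 12.4% held TATAAA, 17.8% TGACG, 6.75% TGANTCA, 6.02% CACGTG and 32.7% GGGCGG. These matches describe letters, and no binding was measured.

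The share of spots well above background in the Cy5 channel ran from 49.1% to 72.8% over the arrays, and none was saturated. Markers of the lung's own cells (Pecam1, Pdgfra, Marco, Sftpc, Cd3e) were well above background on all 69 arrays. Marker genes of heart muscle and fat were also measured, and their mean levels varied widely among arrays of the same group, from 1.23 to 5.23 for heart muscle and from 0.98 to 4.62 for fat in the vehicle group of day 1. The defining brown fat gene Ucp1 was well above background on 2 of 69 arrays.

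Of the 2 Adamts9 probes, one was bright enough to stand well above background on all 69 arrays, and the other did so on 7. The level is described with the bright probe. The gene value used in the fits is the median of both, so a change seen by the bright probe alone is smaller in the gene value. On day 1, vehicle lungs read 0.18, 1.17, 1.11, 0.75 and 0.88, a mean of 0.82 ± 0.40 (SD, n = 5). On day 28, vehicle lungs read 2.35, 2.39, 2.01, 1.55 and 1.79, a mean of 2.02 ± 0.36 (SD, n = 5). These were the lowest and the highest of the 14 group means, and the arrays of the 2 vehicle groups did not overlap.

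On day 1 the means of the treated groups ran from 1.14 to 1.84, against 0.82 in vehicle. NRCWE-025 gave 1.12, 1.39, 1.09, 1.00 and 1.53 at 18 µg, a mean of 1.23 ± 0.22 (SD, n = 5). At 54 µg it gave 0.80, 1.08, 1.11, 1.39 and 1.33, a mean of 1.14 ± 0.23 (SD, n = 5). At 162 µg it gave 2.04, 1.48, 1.40, 1.51 and 1.94, a mean of 1.67 ± 0.29 (SD, n = 5). All 5 arrays of the highest dose were above every vehicle array of the day, and at the 2 lower doses the ranges overlapped that of vehicle.

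NRCWE-030 gave 1.14, 0.54, 0.97, 1.39 and 1.65 at 18 µg on day 1, a mean of 1.14 ± 0.42 (SD, n = 5). At 54 µg the arrays read 1.89, 1.62, 1.54, 2.28 and 1.86, a mean of 1.84 ± 0.29 (SD, n = 5). At 162 µg they read 1.58, 2.26, 1.57, 1.83 and 1.57, a mean of 1.76 ± 0.30 (SD, n = 5). Both higher doses had 5 of 5 arrays above every vehicle array, and the mean at 162 µg was no higher than that at 54 µg.

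On day 28 the treated lungs lay below vehicle. NRCWE-025 gave 0.78, 0.84, 0.74, 0.70 and 1.38 at 18 µg, a mean of 0.89 ± 0.28 (SD, n = 5). It gave 0.99, 0.77, 0.67, 1.01 and 1.05 at 54 µg, a mean of 0.90 ± 0.17 (SD, n = 5). At 162 µg it gave 0.70, 1.12, 1.35 and 0.55, a mean of 0.93 ± 0.37 (SD, n = 4). The 3 doses of NRCWE-025 thus had nearly the same level, and every array was below every vehicle array of day 28.

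NRCWE-030 on day 28 gave 0.75, 0.84, 0.94, 0.82 and 1.32 at 18 µg, a mean of 0.93 ± 0.23 (SD, n = 5). It gave 1.25, 0.77, 1.23, 0.92 and 1.38 at 54 µg, a mean of 1.11 ± 0.25 (SD, n = 5). At 162 µg it gave 1.51, 1.27, 1.15, 1.44 and 0.68, a mean of 1.21 ± 0.33 (SD, n = 5). Again every treated array was below the lowest vehicle array, 1.55, and all 6 treated groups of day 28 had means between those of vehicle on day 1 and vehicle on day 28.

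**Figure D1:**
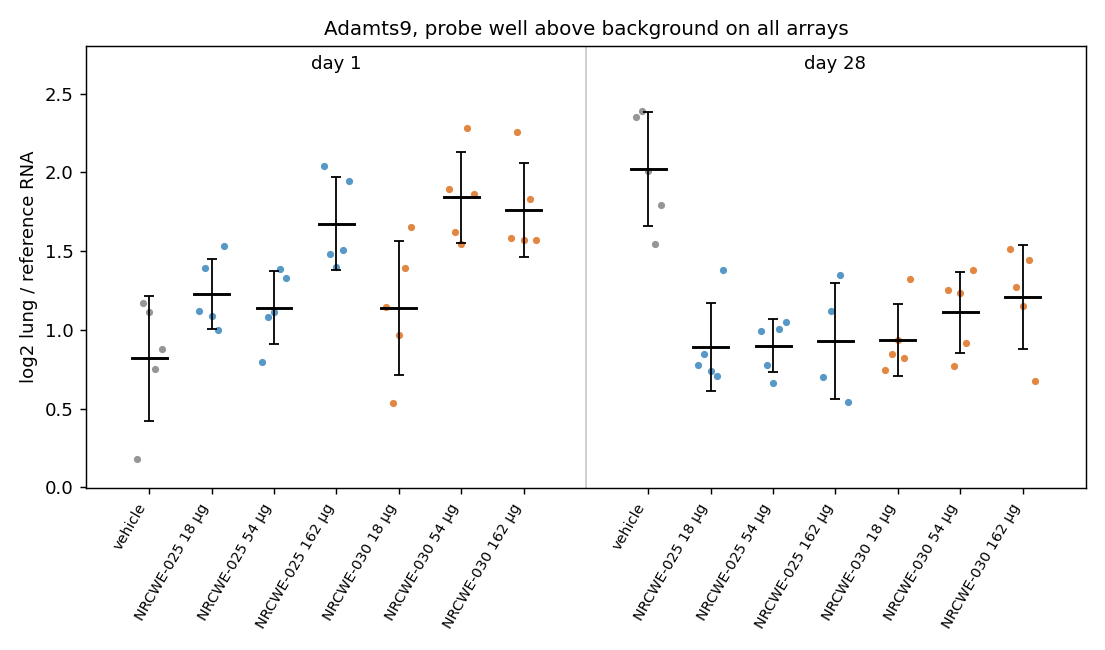
Level of Adamts9 (log2 of lung over reference RNA) on each array, by the probe that was well above background on all arrays, with vehicle in grey, NRCWE-025 in blue and NRCWE-030 in orange; horizontal lines are group means and error bars are SD (n = 5, but n = 4 for the day 28 group given 162 µg of NRCWE-025). Vehicle has the lowest group mean on day 1 (0.82) and the highest on day 28 (2.02), with the treated groups between them.

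In order of level, vehicle on day 1 was followed by 5 treated groups of day 28 (means 0.89 to 1.11), by NRCWE-030 at 18 µg on day 1 and NRCWE-025 at 54 µg on day 1 (1.14 each), by NRCWE-030 at 162 µg on day 28 (1.21) and by NRCWE-025 at 18 µg on day 1 (1.23). Next came NRCWE-025 and NRCWE-030 at 162 µg and NRCWE-030 at 54 µg on day 1 (1.67, 1.76 and 1.84), and last vehicle on day 28. Of the 13 gaps between neighbours in this order, 1 was larger than the larger SD of the pair, the gap of 0.45 between 1.23 and 1.67. The other neighbours did not differ beyond their spread.

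By the same probe, 162 µg minus vehicle was 0.85 (NRCWE-025) and 0.94 (NRCWE-030) on day 1, and -1.09 and -0.81 on day 28. Subtracting the day 28 difference from the day 1 difference gave 1.94 for NRCWE-025 and 1.75 for NRCWE-030. Vehicle on day 28 minus vehicle on day 1 was 1.20, so the vehicle groups moved by more than either treated group: the arrays at 162 µg differed between days by 0.75 (NRCWE-025) and 0.55 (NRCWE-030), with day 1 higher. These are the values on which the gene was chosen, and they carry no test. Without replicate 1 of the day 1 vehicle group, which read 0.18, the day 1 differences at 162 µg were 0.69 and 0.78 and the vehicle difference was 1.04.

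By the gene value, all 5 vehicle arrays of day 28 were above all 5 of day 1, a separation in that direction that 0.943% of all genes showed. The day 1 vehicle mean was the lowest and the day 28 vehicle mean the highest of the 14 groups in 127 of 18656 genes (0.681%), and the reverse held in 84 (0.450%). At 162 µg on day 1, 5 of 5 arrays of each material were above all vehicle arrays, against 0.874% of all genes for NRCWE-025 and 2.9% for NRCWE-030. At 162 µg on day 28, 4 of 4 arrays of NRCWE-025 (1.15% of all genes) and 4 of 5 of NRCWE-030 were below all vehicle arrays. For the latter contrast 1.02% of all genes had no overlap. At 18 and 54 µg on day 28, 5 of 5 arrays were below all vehicle arrays for both materials, where the shares of all genes were 1.22% and 0.649% (NRCWE-025) and 0.633% and 0.799% (NRCWE-030). Nothing is read from these shares, since the same arrays chose the gene.

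Slides and scan days were also compared. All but 1 of the 19 slides held arrays of a single day, whereas 7 of 11 scan days held both days. On the 3 scan days that held both vehicle groups, day 28 was higher by 0.79 to 1.22 by the bright probe. Among slides with both groups, 162 µg was above vehicle on 2 of 2 slides for each material on day 1 and below it on 1 of 1 (NRCWE-025) and 3 of 3 (NRCWE-030) on day 28. Both comparisons use arrays on which Adamts9 was chosen, so the agreement is a description and no test. Between vehicle groups, the neutrophil marker list (6 of 6 measured) had a median difference of 0.54 and the heart muscle list (5 of 5) of 0.62, both higher on day 28, with none of their genes called. Mean neutrophil marker levels ranged from 2.41 to 2.86 in vehicle on day 1 and from 2.30 to 3.80 in vehicle on day 28. Mean heart muscle levels ranged from 1.23 to 5.23 and from 1.79 to 3.77. Against vehicle, the fat list (4 of 4 measured, 0 called) had median differences of -1.33 to -0.68 over the 6 treated groups of day 1 and of -1.27 to 0.23 over the 6 of day 28. Those of the neutrophil list ran from -0.06 to 0.36 on day 1 and from -0.58 to -0.45 on day 28. The groups of a day share their vehicle arrays. The heart muscle list ran from -1.49 to -0.22 on day 1 and from -1.23 to 0.33 on day 28. The part of these lists in the differences of Adamts9 and Adamts1 was not tested.

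Comparisons in which neither the vehicle nor the 162 µg arrays were the arrays compared were tested for Adamts9 with limma. Those arrays were still in the fits, so they entered the variance behind each SE and p. The p-values were adjusted over all 18656 genes (Benjamini-Hochberg), and a gene is called where the adjusted p is under 0.05. None of the 10 tests of Adamts9 was called, and 4 had an unadjusted p under 0.05. In the comparisons behind these tests, 341 to 2158 of the 18656 genes had an unadjusted p under 0.05. Between 54 and 18 µg, the largest difference of the gene value was that of NRCWE-030 on day 1, 0.42 ± 0.10 (SE, limma adjusted p = 0.286), with 5 of 5 arrays at 54 µg above all at 18 µg (0.445% of all genes; 0.0107% were called). The other 3 differences were -0.07 for NRCWE-025 on day 1, 0.02 for NRCWE-025 on day 28 and 0.15 for NRCWE-030 on day 28 (limma adjusted p from 0.970 to 0.999). By the bright probe the first difference was 0.70, and 3 of 5 arrays lay above all others.

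Day 1 was above day 28 in all 4 comparisons of arrays at the lower doses. At 54 µg of NRCWE-030 the gene value differed by 0.37 ± 0.10 (SE, limma adjusted p = 0.0803), with 5 of 5 arrays of day 1 above all of day 28 (0.911% of all genes; 0.434% were called). By the bright probe, which separated these groups too, the difference was 0.73, and it was called (limma adjusted p = 0.0397) when dim probes were left out of the fit. The differences at 54 µg of NRCWE-025, 18 µg of NRCWE-025 and 18 µg of NRCWE-030 were 0.15 (limma adjusted p = 0.834), 0.24 (0.487) and 0.10 (0.852). Between the materials, the F-test over 18 and 54 µg gave a limma adjusted p of 0.221 on day 1, where 0.129% of all genes were called, and 0.832 on day 28, where 0.182% were. In the other comparisons behind these 10 tests, calls were made for 0% of all genes between 54 and 18 µg and, between days, for 0.0161% (18 µg) and 0.075% (54 µg) with NRCWE-025 and 0.0107% (18 µg) with NRCWE-030.

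**Figure D2:**
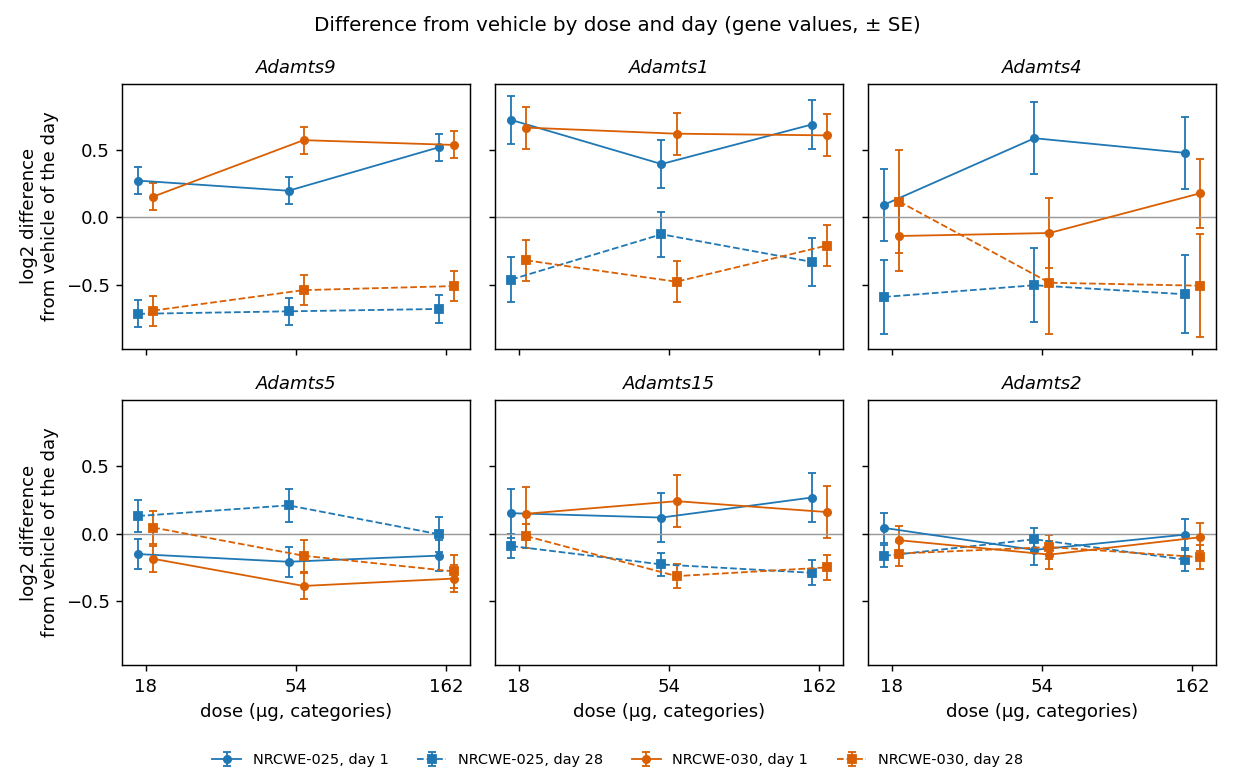
Log2 difference from the vehicle group of the same day (gene value, error bars SE of the fit) against dose in µg, drawn as categories, for the 6 genes; solid lines are day 1, dashed lines day 28, blue NRCWE-025 and orange NRCWE-030. Adamts9 runs from 0.57 at 54 µg of NRCWE-030 on day 1 to -0.71 at 18 µg of NRCWE-025 on day 28, Adamts1 from 0.72 to -0.48, and Adamts2 only from 0.04 to -0.19; all points of a day share its vehicle arrays.

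Among the other 5 genes, none of 20 dose F-tests was called (7 with an unadjusted p under 0.05, smallest limma adjusted p 0.0699), where the share of all genes called was 0.0214% (NRCWE-025) and 0.954% (NRCWE-030) for day 1, and 0.0268% and 0.102% for day 28. None of their 60 comparisons of a dose with vehicle was called either, with 18 at an unadjusted p under 0.05 and a smallest limma adjusted p of 0.0521. Of 18656 genes, 1076 to 2092 had an unadjusted p under 0.05 in a dose F-test, and 956 to 2402 in a comparison with vehicle. Tests of a day share its vehicle arrays, so their counts are not independent. At 18, 54 and 162 µg, the background share of genes called against vehicle was 0%, 0% and 0.209% (NRCWE-025) and 0.00536%, 0.0804% and 1.69% (NRCWE-030) on day 1. It was 0.059%, 0.0268% and 0.0161% (NRCWE-025) and 0.118%, 0.0536% and 0.0965% (NRCWE-030) on day 28. The 10 contrasts of the 162 µg response between days (0.059% and 0.198% of all genes called), the 10 material F-tests (0.155% and 0.241%) and the 5 vehicle comparisons (0.0375%) also had 0 calls, with 5, 1 and 2 at an unadjusted p under 0.05. Over all genes, the numbers under that limit were 1964 (NRCWE-025) and 1430 (NRCWE-030) for the first. They were 1451 (day 1) and 1174 (day 28) for the second and 1587 for the third. Between days, 2 sets of limma comparisons were added after the data had been seen: the response to 18 and to 54 µg between days (20 tests, 1 called), and treated arrays of day 1 against those of day 28 (30 tests, 1 called). Over all genes, 0.0429% and 0.00536% (NRCWE-025) and 0.0107% and 0.0482% (NRCWE-030) were called in the first set, and 0.0107% to 3.03% in the second, where 162 µg of NRCWE-025 gave 0.767%.

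Adamts1, which inflammatory stimuli are known to induce and whose product cuts versican, was the relative with the largest difference from vehicle. It neighbours Adamts5 on chromosome 16. Both of its probes were well above background on 69 of 69 arrays. Vehicle lungs of day 1 read -0.41, -0.30, -0.28, -0.23 and -0.10, the lowest of the 14 group means at -0.26 ± 0.11 (SD, n = 5). Vehicle lungs of day 28 read 0.41, 0.48, 0.18, 0.24 and 0.02, a mean of 0.27 ± 0.18 (SD, n = 5). The 2 vehicle groups did not overlap, as in 0.943% of all genes with day 28 higher, and the difference of 0.53 ± 0.18 (SE) was not called (limma adjusted p = 0.331).

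At 162 µg on day 1, NRCWE-025 gave 0.86, 0.11, 0.32, 0.71 and 0.12, all above vehicle (as in 0.874% of all genes). NRCWE-030 gave 0.84, 0.42, 0.19, 0.42 and -0.16 at that dose, with 4 of 5 arrays above all vehicle arrays. The differences from vehicle were 0.69 ± 0.18 (SE, limma adjusted p = 0.106) and 0.61 ± 0.16 (SE, limma adjusted p = 0.0521). For neither material was the Adamts1 difference from vehicle on day 1 larger at 162 µg than at 18 µg. NRCWE-030 was above vehicle by 0.66 at 18 µg (limma adjusted p = 0.227) and 0.62 at 54 µg (0.128), with 5 of 5 arrays above all vehicle arrays at each (0.547% and 1.06% of all genes). NRCWE-025 was above vehicle by 0.72 at 18 µg (limma adjusted p = 0.559) and by 0.39 at 54 µg (0.743), with 4 of 5 arrays above at each. On day 28 the differences of the 6 treated groups from their shared vehicle group ran from -0.48 to -0.13, with limma adjusted p from 0.412 to 0.891.

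The called difference was at 18 µg of NRCWE-025. On day 1 these lungs read 0.69, 0.85, -0.16, 0.46 and 0.45 for Adamts1, the highest of the 14 group means at 0.46 ± 0.38 (SD, n = 5). On day 28 they read -0.09, 0.06, 0.05, -0.57 and -0.42, a mean of -0.19 ± 0.28 (SD, n = 5). The difference from vehicle was 0.72 on day 1 and -0.46 on day 28, and these differed by 1.18 ± 0.25 (SE, limma adjusted p = 0.0484), a difference between effects of which 0.0429% of all genes had a call. It was one of the added comparisons and rests on the vehicle groups, which themselves differed by 0.53. Without any 1 array, the call held in 14 of 39 fits. By single probes the difference was 0.93 and 1.43, neither called in a fit across probes (limma adjusted p = 0.217 and 0.211). The same contrast at 162 µg was 1.02 (limma adjusted p = 0.0901) for NRCWE-025 and 0.81 (0.242) for NRCWE-030. At 54 µg it was 0.52 (limma adjusted p = 0.911) for NRCWE-025 and 1.09 (0.0713) for NRCWE-030, and at 18 µg of NRCWE-030 it was 0.98 (0.458).

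By slide and scan day, Adamts1 at each dose of each material was above vehicle in every slide and every scan day of day 1 that held both groups. Vehicle of day 28 was above vehicle of day 1 on 3 of 3 scan days, by 0.45 to 0.79. With slide as a random block, the 162 µg difference of NRCWE-030 on day 1 was 0.61 (limma adjusted p = 0.0312), and the difference between days at 162 µg of NRCWE-025 was 1.12 (limma adjusted p = 0.0182), so both were then called. No neighbours in the order of Adamts1 group means differed by more than the larger SD, the largest gap being 0.13.

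Adamts5 encodes the major aggrecan-cutting enzyme of cartilage. Vehicle lungs of day 1 read -0.59, -0.61, -0.97, -0.35 and -0.66, a mean of -0.64 ± 0.22 (SD, n = 5). NRCWE-030 on day 1 gave -0.88, -1.15, -1.07, -1.05 and -0.98 at 54 µg, the lowest of the 14 group means at -1.02 ± 0.10 (SD, n = 5). At 162 µg it gave -1.02, -1.21, -0.88, -0.85 and -0.89, a mean of -0.97 ± 0.15 (SD, n = 5). At 54 µg 4 of 5 arrays, and at 162 µg 2 of 5, lay below all vehicle arrays. The differences were -0.39 ± 0.10 (SE, limma adjusted p = 0.128) and -0.33 ± 0.10 (SE, limma adjusted p = 0.0936). The second was called with no background correction (-0.37, limma adjusted p = 0.0458), by the authors' normalised values (-0.38, 0.0295) and without replicate 3 of the day 1 vehicle group (-0.42, 0.0248). NRCWE-025 on day 1 differed from vehicle by -0.15 to -0.21, with no call.

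The called Adamts5 difference was that between days at 54 µg of NRCWE-025, among the added comparisons. On day 1 these lungs read -0.93, -1.04, -0.59, -0.78 and -0.88, a mean of -0.85 ± 0.17 (SD, n = 5). On day 28 they read -0.38, -0.18, -0.30, -0.48 and -0.22, the highest of the 14 group means at -0.31 ± 0.12 (SD, n = 5). All 5 arrays of day 1 were below all 5 of day 28, as in 0.472% of all genes, with a difference of -0.53 ± 0.11 (SE, limma adjusted p = 0.0265, with 0.075% of all genes called). The probe that was well above background on 69 arrays gave -0.85 (limma adjusted p = 0.00888 in the fit across probes), and the other, well above background on 49 arrays, gave -0.22 (limma adjusted p = 0.855). At every dose of both materials Adamts5 was lower on day 1 than on day 28, by 0.17 to 0.53 in size, and no other of these 6 differences was called. The vehicle difference was 0.12, with day 28 higher (limma adjusted p = 0.815), and within the 3 scan days with both vehicle groups day 28 was higher on 1 and lower on 2. The call was lost without any 1 of replicates 1, 2 and 5 of the day 1 group or replicates 2, 3 and 5 of the day 28 group (differences from -0.49 to -0.53, limma adjusted p up to 0.157).

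**Figure D3:**
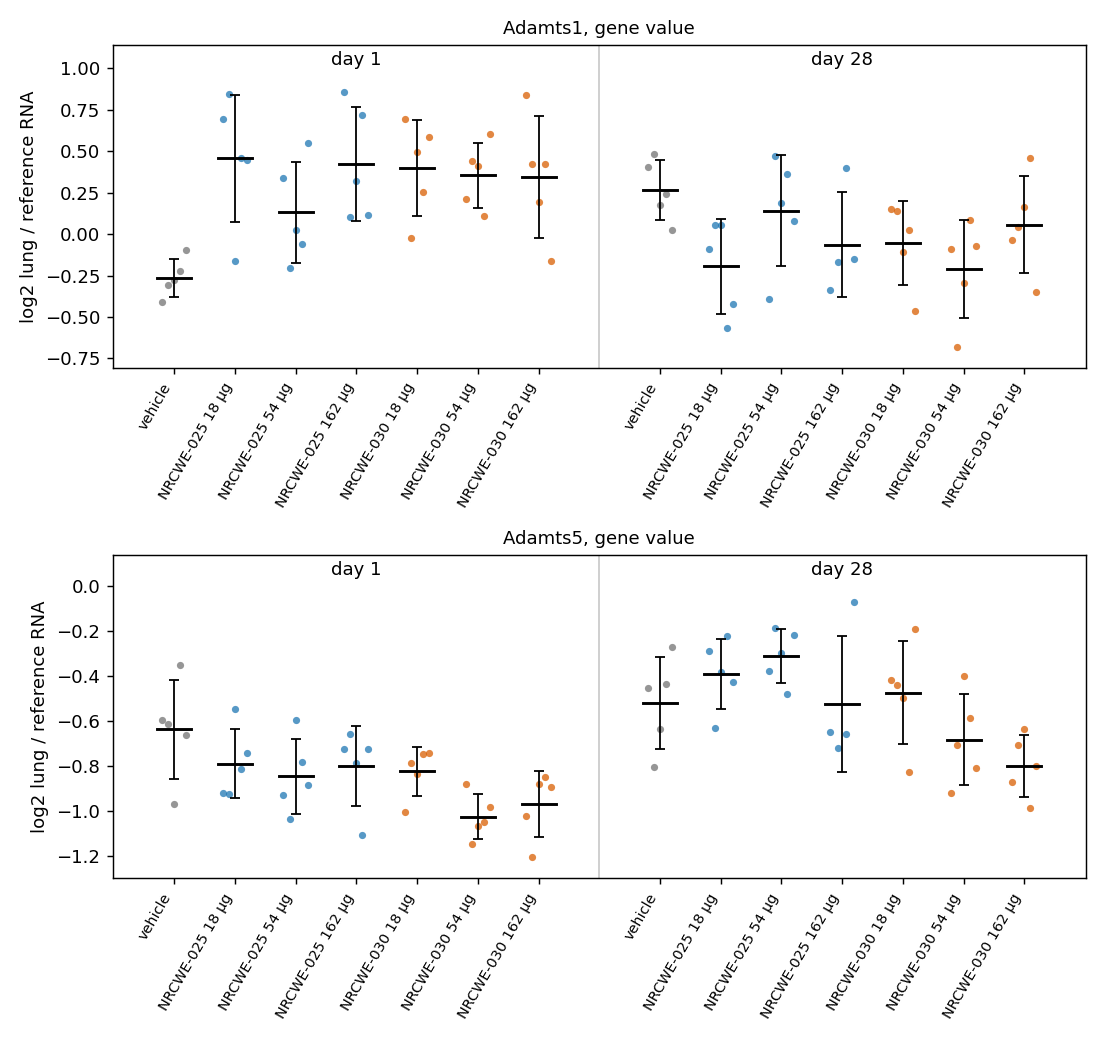
Level (log2 of lung over reference RNA, gene value) of Adamts1 and Adamts5 on each array of the 14 groups; points are arrays, horizontal lines group means and error bars SD (n = 4 or 5), with vehicle in grey, NRCWE-025 in blue and NRCWE-030 in orange. Adamts1 is lowest in vehicle on day 1 (-0.26), and Adamts5 is lowest at 54 µg of NRCWE-030 on day 1 (-1.02) and highest at 54 µg of NRCWE-025 on day 28 (-0.31).

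Adamts4, an aggrecanase that is induced by inflammatory cytokines, was read by 1 probe, detected well above background on 57 of 69 arrays, with the largest SD within a group of the 6 genes. Group means ran from -0.85 to -0.12, with SDs up to 0.96 at 18 µg of NRCWE-030 on day 28. Vehicle lungs of day 1 lay between -1.38 and -0.22, and vehicle lungs of day 28 between -0.75 and 0.56, so the groups overlapped. At 162 µg of NRCWE-025 the difference from vehicle was 0.48 on day 1 (95% interval -0.08 to 1.04) and -0.57 on day 28 (-1.18 to 0.04), neither called. NRCWE-030 gave 0.18 and -0.51 at that dose, with intervals that included 0.

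Adamts15, a versican-cutting relative that neighbours Adamts8, had 1 probe, well above background on 69 arrays. Group means lay between 4.27 and 4.59, and vehicle on day 28 was again the highest of the 14. On day 1 the vehicle lungs read 3.44, 4.57, 4.43, 4.62 and 4.37, and the first of these was the same array that read lowest for Adamts9. On day 28 the vehicle lungs read 4.70, 4.48, 4.72, 4.39 and 4.67. The vehicle difference of 0.30 (limma adjusted p = 0.542) was 0.09 without that array. On day 28 the differences of the 6 treated groups from their shared vehicle group ran from -0.31 to -0.02, the largest in size being that at 54 µg of NRCWE-030 (95% interval -0.50 to -0.13, limma adjusted p = 0.407), with 4 of 5 arrays below all vehicle arrays.

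Adamts2, the procollagen peptidase, differed least between groups. Its 2 probes were well above background on 69 and 63 arrays. Group means of the gene value lay between -0.20 and 0.07, and vehicle lungs ranged from -0.23 to 0.29 on day 1 and from -0.12 to 0.15 on day 28. At 162 µg the differences from vehicle were -0.01 (NRCWE-025) and -0.03 (NRCWE-030) on day 1 and -0.19 and -0.17 on day 28, with limma adjusted p from 0.678 to 0.986. The day 28 intervals, -0.38 to -0.01 for NRCWE-025 and -0.36 to 0.01 for NRCWE-030, reach down to a difference of that size.

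Over the 14 group means, the 10 genes most like Adamts9 by Pearson correlation, of 13712 genes detected well above background on at least 50% of arrays, were Foxk2 (0.91), Dnaja1 (0.90), Mfap3 (0.90), Fkbp14 (0.89), Agfg1 (0.89), Ccdc25 (0.88), Taf12 (0.88), Ywhab (0.88), Arid5a (0.88) and Pygo2 (0.87). Foxk2, Taf12, Arid5a and Pygo2 encode nuclear regulators of transcription, Dnaja1 and Fkbp14 protein folding factors, Ywhab a 14-3-3 adaptor and Mfap3 a microfibril-associated glycoprotein. Vehicle on day 28 exceeded vehicle on day 1 in all 10, by 0.17 (Mfap3) to 0.40 (Dnaja1), against 0.74 for the Adamts9 gene value, a direction that follows from choosing genes by likeness over means that include both vehicle groups. Of these 10 genes, 1 was also among the 10 most like by Spearman correlation over the group means and 3 by Pearson correlation over the 69 arrays. The correlations are a description over 14 means that share arrays and batches. Adamts1 was the most like of the relatives (0.66, rank 369), followed by Adamts15 (0.56, rank 872), Adamts2 (0.35, rank 2798) and Adamts4 (0.33, rank 2922), whereas Adamts5 ran opposite (-0.51, rank 12329).

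**Figure D4:**
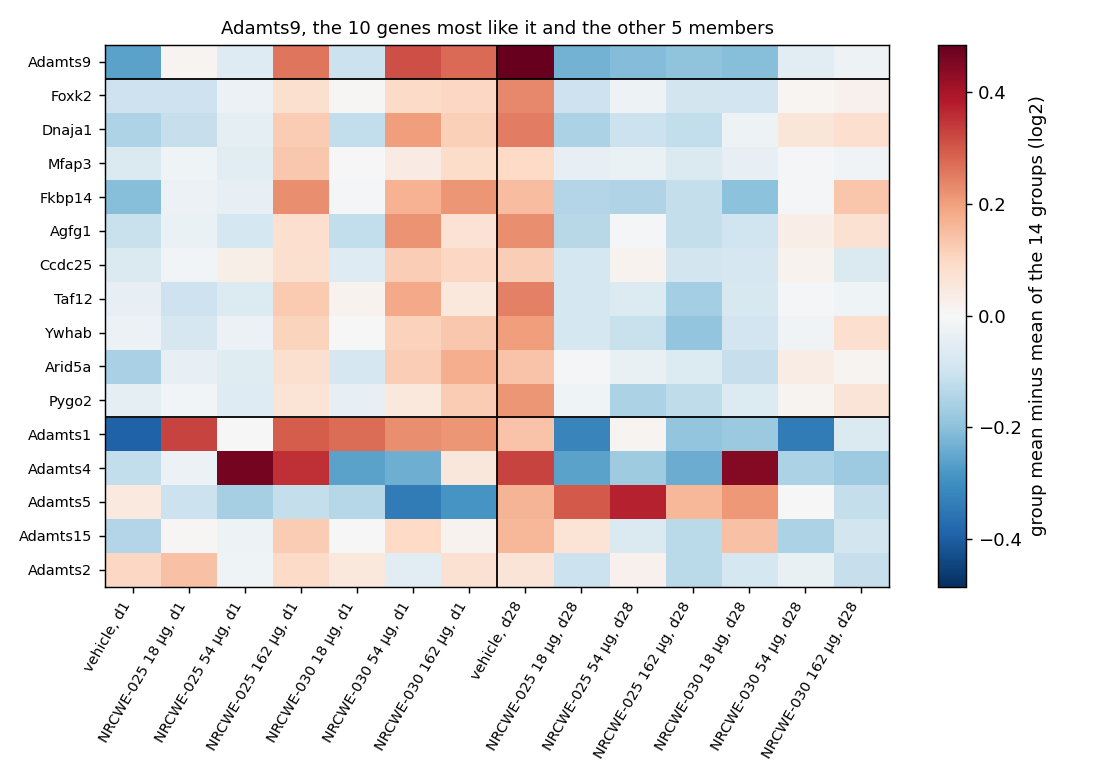
Group mean minus the mean of the 14 groups (log2, colour scale) for Adamts9, the 10 genes most like it over the group means, and the other 5 genes, with groups of day 1 to the left of the black line and day 28 to the right. Vehicle was higher on day 28 than on day 1 in Adamts9 (by 0.74) and in each of the 10 genes (by 0.17 to 0.40), which were chosen by likeness over these means, and Adamts5 has its lowest cells at 54 and 162 µg of NRCWE-030 on day 1.

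The pathway around these enzymes was read from 7 lists holding 67 genes, of which 64 were tested. Of the other ADAMTS genes, 11 of 13 were tested and 0 was called at 162 µg against vehicle on either day. Of all genes, 0.209% (NRCWE-025) and 1.69% (NRCWE-030) were called at that dose on day 1, and 0.0161% and 0.0965% on day 28. With shares this low, a count of 0 in a short list is not read as a result about its genes. Median differences on day 1 were 0.07 for both materials against 0.00 over all genes. The largest differences at 162 µg on day 1 were those of Adamts8, which encodes an antiangiogenic member of the family and neighbours Adamts15 (0.24 with NRCWE-025, 0.72 with NRCWE-030), and Adamts3, a procollagen peptidase (0.19 and 0.25). Adamts7 was higher on day 1 than on day 28 among lungs given 162 µg of NRCWE-030, by 0.43 ± 0.09 (SE, limma adjusted p = 0.00449, in a comparison with 3.03% of all genes called). The secreted ADAMTS-like proteins, which lack the protease domain, had 5 of 6 genes tested and 0 called, with Adamtsl2 (-0.50 and -0.16) and Adamtsl4 (-0.40 and -0.33) lowest against vehicle at 162 µg on day 1.

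The inhibitors held the largest change of the pathway. With 162 µg of NRCWE-030, the day 1 lungs had 1 of 6 called higher and 2 lower, while 1.22% of all genes were called higher and 0.472% lower. Timp1, an inhibitor of matrix metalloproteinases, went from -2.24 ± 0.14 in vehicle to 0.94 ± 0.51 (SD, n = 5 each), a rise of 3.18 ± 0.46 (SE, limma adjusted p = 0.00127). Timp2 fell by 0.90 (limma adjusted p = 0.0485) and the membrane-anchored inhibitor Reck fell by 0.54 (limma adjusted p = 0.0380). The Timp1 call was lost in 1 of 12 other settings, with scan day as a fixed block, and held in 10 of 10 fits without 1 array. The Timp2 call held in 7 of 12 settings and 3 of 10 such fits, and the Reck call in 6 of 12 and 2 of 10. Scaling between arrays left all these values as they were. Timp2 and Reck have 1 probe each, so other probe summaries could not alter their differences, and the counts of settings overstate the number of separate checks. Timp3, the inhibitor that acts on several ADAMTS enzymes, differed by -0.21 (limma adjusted p = 0.672). With NRCWE-025 at 162 µg on day 1, Timp1 differed by 2.20 (limma adjusted p = 0.0740) and no inhibitor was called (0.209% of all genes called). The rise of Timp1 was larger on day 1 than on day 28 for NRCWE-030, by 2.85 (limma adjusted p = 0.0152, with 0.198% of all genes called). On day 28 no inhibitor was called at 162 µg. Treated arrays of day 1 were also compared with those of day 28. There 1 of 6 inhibitors was called higher on day 1 at 162 µg of NRCWE-025 (0.767% of all genes called) and 1 at 54 µg of NRCWE-030 (0.434%). At 162 µg of NRCWE-030, 1 was called higher and 1 lower (3.03%).

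Genes of activation and clearance had 6 of 6 tested and 0 called. Against vehicle at 162 µg, 0.209% (NRCWE-025) and 1.69% (NRCWE-030) of all genes were called on day 1, and 0.0161% and 0.0965% on day 28. Counts of 0 in the lists below are therefore not read as results about their genes. Syndecan 4 (Sdc4) and Pcsk6, a proprotein convertase, differed most at 162 µg of NRCWE-030 on day 1 (0.34 and -0.28). Of the proteoglycan and hyaluronan genes, 15 of 15 were tested and 0 was called against vehicle at 162 µg, with Bcan (-1.19, limma adjusted p = 0.0513) and Dcn (-0.94, 0.0721) lowest with NRCWE-030 on day 1. Dcn, which encodes the small proteoglycan decorin, passed the dose F-test for NRCWE-030 on day 1 (limma adjusted p = 0.0486), with 0.71 ± 0.28 in vehicle and -0.49 ± 0.47 at 18 µg (SD, n = 5 each). In that test 0.954% of all genes were called, and Dcn was not called by the ordinary F-test, which does not moderate the variance (ordinary F-test adjusted p = 0.119). Among other substrates, 11 of 11 were tested and 0 was called against vehicle at 162 µg, where Fbln1 (-0.70) and Col3a1 (0.57) differed most with NRCWE-030 on day 1. Between days at 162 µg of NRCWE-030, Col3a1 (0.64, limma adjusted p = 0.0181) and Col5a1 (0.65, 2.83e-05) were higher and Fbln1 (-0.82, 0.0166) lower on day 1. In that comparison 3.03% of all genes were called. At 54 µg of NRCWE-030 between days, Thbs1 was higher (0.58, limma adjusted p = 0.00894) and Fbln1 lower (-0.85, 0.0436) on day 1, where 0.434% of all genes were called. The effect on Thbs1 also differed between days (0.77, limma adjusted p = 0.0443, with 0.0482% of all genes called). Nearly all slides held arrays of a single day, and these calls were not followed with slide as a block.

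Among 10 cytokine and receptor genes, 10 were tested and 2 rose at 162 µg of NRCWE-030 on day 1: Il1b by 1.27 (limma adjusted p = 0.0154) and Il6 by 1.21 (0.0371), with 5 of 5 arrays above all vehicle arrays for each. Of all genes, 1.22% were called higher in this comparison and 2.9% had all treated arrays above vehicle. The Il1b call held in 10 of 12 other settings and in 9 of 10 fits without 1 array, and the Il6 call in 7 of 12 and 2 of 10, with Il6 at 3.98 by the scanner log ratio. Il1b and Il6 also have 1 probe each, so several of these settings could not alter their differences. With NRCWE-025 they differed by 0.80 and 1.07 and neither was called. At 162 µg of NRCWE-030 on day 1, 1 of 6 neutrophil markers was called higher and 1 of 5 fibroblast and smooth muscle markers lower. The median difference of the heart muscle list was -0.47 and that of the fat list -0.68. With NRCWE-025 at 162 µg these were -1.49 and -1.09. Their part in these results was not tested.

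**Figure D5:**
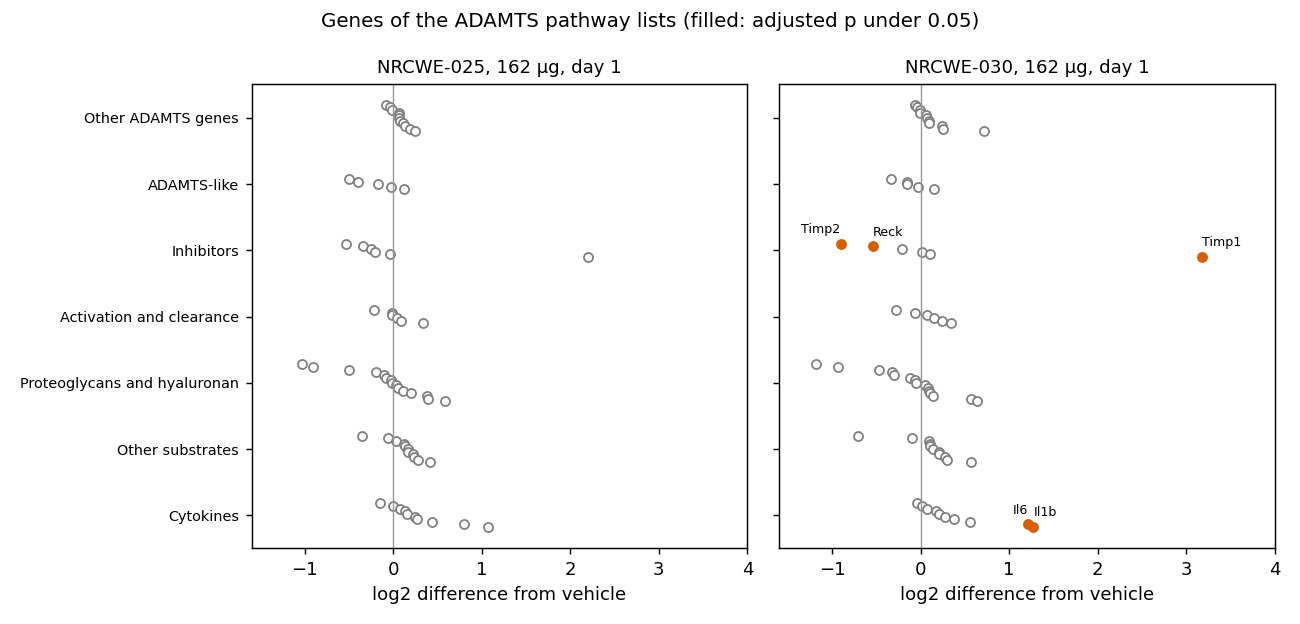
Log2 difference from vehicle at 162 µg on day 1 for each tested gene of the 7 lists (rows), NRCWE-025 left and NRCWE-030 right; each point is a gene, and filled points had a limma adjusted p under 0.05. With NRCWE-030, Timp1, Il1b and Il6 are filled to the right of 0 and Timp2 and Reck to the left, and no point is filled with NRCWE-025.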

How the data were processed

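RNA of 69 mouse lungs was measured on 2-colour Agilent whole-genome arrays, lung in Cy5 and reference RNA in Cy3. The deposited intensities are median spot and local background signals from Agilent Feature Extraction 11.0.1.1, per the file headers. The deposited flags, coded as other values of 0 and 1, give well-above-background, saturated and outlier spots. The deposited scanner log ratios are log10 of Cy5 over Cy3. The authors' series matrix holds normalised log2 ratios, whose centring and background treatment are not given in the sources used here; they correlated with loess values without background correction at a median of 0.996 (lowest 0.922).

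From these, local backgrounds marked as outliers were replaced by the array median, signals were corrected by normexp (offset 50), and arrays were loess-normalised with no scaling between arrays (R 4.3.3, limma 3.58.1, data.table version 1.17.8, jsonlite 2.0.0). Spots were reduced to probes and probes to genes by the median, giving 18656 genes (27479 of 41174 probes had a RefSeq symbol, and 93 symbols were left out for a missing value). Groups came from the labels. Dose contrasts were fitted for each material and day over 4 groups, other contrasts over 14 groups, with lmFit, eBayes and Benjamini-Hochberg adjustment over all genes at 0.05. Each array is 1 mouse, and the number of arrays limits the precision.

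The members and the gene lists were chosen with earlier results of these data known. Named genes are the 6 members, list genes that were called or else the 2 largest differences at 162 µg, and the 10 genes most like Adamts9. Some calls of list genes between days are given as counts only. Lung, heart, fat and blood cell marker lists were read the same way. Alternatives were other background corrections, the scanner log ratio, the series matrix, between-array scaling, other probe summaries, a filter on dim probes, slide or scan day as blocks, a single fit, an ordinary F-test and leaving out each array. On simulated data with independent noise, 94% of 100 genes changed by 1 (log2) were recovered for 162 µg of NRCWE-030 against vehicle on day 1, with 16 false calls over 18656 genes. For the difference of that effect between days, 89% were recovered, with 12 false calls. Changes smaller than 1, slides and scan days were not simulated, so the shares do not hold for them. Figures were drawn with Python 3.11.15 and matplotlib 3.10.9.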

Additional observations from a re-analysis of the deposited data

Results flagged for a closer look

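Within groups of 4 or 5 arrays, 6 of 98 sets of member values had a single array far from the others, and chance gives about 1 in 20. For the Adamts9 gene value this was replicate 1 at 54 µg of NRCWE-025 on day 1, at 0.37 against 0.61 to 0.68, and for the bright Adamts9 probe replicate 5 at 18 µg of NRCWE-025 on day 28, at 1.38 against 0.70 to 0.84. Adamts4 had replicate 2 at 162 µg of NRCWE-030 on day 28, at 0.15 against -1.17 to -0.84. Adamts5 had replicate 4 at 162 µg of NRCWE-025 on both days, at -1.11 against -0.78 to -0.66 on day 1 and at -0.0712 against -0.72 to -0.65 on day 28; replicate numbers of different groups name different mice. Adamts15 had replicate 1 of the day 1 vehicle group, at 3.44 against 4.37 to 4.62.

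Over the 6 genes, both materials and the doses of 18, 54 and 162 µg, 9 combinations had every treated array on one side of the vehicle mean on day 1 and on the other side on day 28. The share of all genes that do so is not given here, so nothing is read from this number. For Adamts9 these were 18 µg and 162 µg of NRCWE-025 (differences of effects 0.99 and 1.20 by the gene value) and 54 µg and 162 µg of NRCWE-030 (1.11 and 1.04), and the difference was not tested, since the gene was chosen on it. For Adamts1 they were 18 µg of NRCWE-025 (1.18, limma adjusted p = 0.0484), 18 µg of NRCWE-030 (0.98, 0.458) and 54 µg of NRCWE-030 (1.09, 0.0713). Adamts4 and Adamts15 did so at 162 µg of NRCWE-025 (1.05, limma adjusted p = 0.392, and 0.56, 0.300); without replicate 1 of the day 1 vehicle group the Adamts15 difference was 0.34 (0.466). All of these share the vehicle groups, so they are not independent of each other.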

How the results depend on the processing

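No called difference of the 6 genes changed direction, and neither did the 5 list genes called at 162 µg of NRCWE-030 on day 1. Calls of list genes between days were not followed through these settings. The Dcn dose call was checked by the ordinary F-test only. The untested Adamts9 differences kept their sign in all 12 alternatives and in every fit without 1 array: 162 µg minus vehicle ran from 0.35 to 0.85 (NRCWE-025) and 0.42 to 1.14 (NRCWE-030) on day 1 and from -1.42 to -0.64 and -0.99 to -0.47 on day 28. The gene was chosen on these values, so a stable sign is no support for them. Scaling between arrays and the mean over its 2 probes also leave these differences as they were. The Adamts9 difference between days at 54 µg of NRCWE-030 was called with dim probes left out (0.73), and was 0.02 with slide as a fixed block, where the other 3 turned below 0 (-0.22 to -0.13), uncalled; nearly all slides hold 1 day. Of the other 5 genes, 1 was called against vehicle for NRCWE-030 on day 1 with no background correction, by the series matrix, with dim probes left out, with slide as a random block and in a single fit, and 1 by the dose F-test under the series matrix, the random slide block and a single fit; without 1 array both ran from 0 to 1, with one or both calls appearing without replicate 3 of vehicle, replicates 2 and 3 at 18 µg, replicate 5 at 54 µg or replicate 5 at 162 µg. In the difference of the 162 µg effect between days of NRCWE-025, 1 was called with slide as a random or fixed block or scan day as a fixed block (Adamts1), and between vehicle groups 1 with slide as a fixed block (Adamts15, 0.99). Of list genes at 162 µg of NRCWE-030 on day 1, 5 were called, against 2 with backgrounds as deposited, with none corrected, by the series matrix or with slide as a fixed block, 0 with scan day as a fixed block, 8 by the brightest probe or a random slide block and 11 in a single fit; without 1 array the number ran from 1 (replicate 2 at 162 µg) to 8 (replicate 4 at 162 µg), and it was 2 or 3 without replicates 2, 3, 4 or 5 of vehicle or replicates 1, 3 or 5 at 162 µg. For NRCWE-025 it was 0, against 1 with a random slide block or a single fit, and 0 to 1 without 1 array (replicates 1 and 2 at 162 µg gave 1). Of the 10 genes most like Adamts9, 4 were shared with backgrounds as deposited, 5 by the scanner log ratio, 4 by the brightest probe, 1 by Spearman correlation and 3 over 69 arrays. The Adamts1 call at 18 µg of NRCWE-025 was lost with backgrounds as deposited, no correction, the mean over probes or the brightest probe (1.11 to 1.43), and among arrays of the groups compared it held only without replicate 3 of vehicle on day 1, replicate 5 of vehicle on day 28 or replicate 3 of either treated group. The Adamts5 call was lost by the scanner log ratio, the series matrix and slide as a fixed block (-0.79, -0.50 and -0.70). The cause was not tested. No paired analysis was possible because the labels carry no replicate number shared between groups.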
